A study of Mus musculus with 12 samples.

Results

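Full-thickness skin of newborn mice was compared between mice lacking keratin 1 (Krt1-/-) and mice carrying it (Krt1+/+), on 3 arrays of each genotype. The rule took the arrays titled as newborn Krt1-/- skin and Krt1+/+ skin, which are 6 of the 12 arrays of the series, and read every gene with a probe detected (detection p under 0.05) on at least 3 of the 12 arrays, 12099 genes in all. All mice were C57BL/6 at postnatal day 0, and the arrays are 1-colour Illumina bead arrays of total RNA. The other 6 arrays are of epidermis alone, 3 from Krt1+/+ and 3 labelled Krt1-/-, and served to separate epidermal from dermal genes and to set the skin result beside that of epidermis. The labels do not say how the Krt1 allele was made, whether tissue was pooled, or whether replicate arrays are of different animals. The p-values thus measure the spread among these arrays only, and that spread may be technical.

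Keratin 1 is a type II keratin that pairs with keratin 10 in the suprabasal layers of the epidermis, where keratinocytes stop dividing and build the barrier. In those layers cells make cornified envelope proteins, lipids, junctions, proteases and their inhibitors, and stressed keratinocytes also release alarmins, growth factors and antimicrobial peptides. Full-thickness skin adds to the epidermis the dermis with its fibroblasts and collagen, vessels, nerves, mast cells and macrophages, the hair follicles, fat and the thin muscle below the skin.

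Between 18177 and 19931 of 45281 probes were detected on a skin array. Arrays of a genotype correlated at 0.966 to 0.985 over normalized genes, and arrays of different genotype at 0.898 to 0.940. Krt1 read 4329, 5915 and 1794 intensity units on the Krt1+/+ skin arrays and 279.9, 319 and 183 on the Krt1-/- skin arrays. The groups lay apart, and Krt1 fell by 4.71 ± 0.59 (SE, n = 3 against 3) on the log2 scale, with an adjusted p of 8.1e-05 by limma. Values given per array here and below are deposited intensities in the order of the replicates, whose background of about 90 to 100 units was not subtracted, while log2 changes and folds are of background-corrected, quantile-normalized values and so exceed the raw ratios. No source used here says whether the allele removes the stretch that the probe reads. On the arrays labelled Krt1-/- epidermis the same probe differed by -1.08 (adjusted p = 0.18), so statements on those arrays, and on averages that use them, rest on their labels. The 3 Krt1-/- skin arrays stand with the 3 Krt1+/+ epidermis arrays in the first 6 columns of the deposited tables, and the 3 Krt1+/+ skin arrays with the 3 labelled Krt1-/- epidermis in the last 6. Over 16240 probes undetected on every array, arrays of different groups correlated at -0.028 on average within a set of 6 columns and at -0.14 between the sets. Within skin, genotype and column set therefore cannot be told apart. The genotype effect averaged over skin and epidermis, where an additive log2 offset of a column set drops out, is given beside the skin values. For a gene measured in skin and near background in epidermis that average is diluted by an effect near 0. Against Krt1+/+ epidermis, Krt1+/+ skin read higher by a median log2 of 4.99 over skeletal muscle genes, 3.37 over endothelial genes and 2.20 over fibroblast genes, and lower by a median of -0.72 over basal keratinocyte genes, in the direction of the tissue labels.

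In Krt1-/- skin 1747 genes rose and 1965 fell, where rose and fell here always mean an adjusted p under 0.05 by limma with Benjamini-Hochberg adjustment over the 12099 genes. These counts are 14.4% and 16.2% of the genes tested, the shares to set beside counts of listed genes. The lists were chosen with earlier results of these data known, so an excess over these shares is a description and not a test. A gene silent in Krt1+/+ skin also enters a list count only if it was detected on other arrays, such as those where it rose. Listed counts of 0 to 2 changed by 1 or 2 genes when single arrays were left out, unless a larger change is given. Without Krt1+/+ skin replicate 1 the count of falls was 1307. Under median centring 1469 rose and 1182 fell, so that rises outnumbered falls. A change over 2-fold was seen in 913 of the rises and 635 of the falls. The values printed for a gene are of its brightest probe. Of 47 named genes that passed and have other kept probes, 24 had another probe with less than 0.5 of the printed log2 change or the opposite sign. These values are given as "other probe" beside the gene, always on the log2 scale. In the average over both tissues, which reads the same skin arrays, 1324 genes rose (10.9%) and 1601 fell (13.2%), and in epidermis alone 1817 rose (15.0%) and 2029 fell (16.8%). Of the skin rises 399 rose in epidermis (22.8%) and 683 fell there (39.1%), while of the skin falls 270 fell in epidermis (13.7%) and 398 rose (20.3%).

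The 250 bases before the start of 6 genes are printed here because 2 gene groups described below, small proline-rich (Sprr) and interferon response genes, hold a short motif there more often than other genes tested. They are given 5′ to 3′ on the strand of the gene, from RefSeq in build GRCm38.p6. Capitals mark TGANTCA, the site of AP-1 factors, in the Sprr genes, and GAAA followed after any 2 bases by GAAA, the core of an interferon response element, in Isg15 and Oas1g. Lce3f, from the neighbouring late cornified envelope (Lce) genes, has no match and is shown for contrast.
Sprr2e, chr3:92351893-92352142 (plus strand): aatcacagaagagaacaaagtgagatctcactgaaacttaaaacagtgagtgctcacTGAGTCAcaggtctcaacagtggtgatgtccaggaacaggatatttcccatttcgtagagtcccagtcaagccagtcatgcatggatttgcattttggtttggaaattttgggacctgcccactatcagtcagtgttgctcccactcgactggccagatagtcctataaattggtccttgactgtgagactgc
Sprr2k, chr3:92432332-92432581 (plus strand): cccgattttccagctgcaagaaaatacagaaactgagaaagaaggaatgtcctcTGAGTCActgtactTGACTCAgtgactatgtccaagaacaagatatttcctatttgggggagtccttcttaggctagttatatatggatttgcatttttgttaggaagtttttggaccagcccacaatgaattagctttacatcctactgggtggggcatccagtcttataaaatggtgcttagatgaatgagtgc
Sprr1b, chr3:92438780-92439029 (minus strand): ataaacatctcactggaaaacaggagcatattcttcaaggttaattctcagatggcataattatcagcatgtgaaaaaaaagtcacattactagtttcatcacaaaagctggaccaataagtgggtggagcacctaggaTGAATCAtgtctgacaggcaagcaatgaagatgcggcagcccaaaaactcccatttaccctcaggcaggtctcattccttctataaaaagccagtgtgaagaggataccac
Lce3f, chr3:92991967-92992216 (plus strand): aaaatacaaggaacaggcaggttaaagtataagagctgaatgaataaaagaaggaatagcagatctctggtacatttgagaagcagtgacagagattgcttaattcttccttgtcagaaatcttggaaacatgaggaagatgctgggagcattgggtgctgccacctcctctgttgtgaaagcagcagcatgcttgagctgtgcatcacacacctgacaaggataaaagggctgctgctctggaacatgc
Isg15, chr4:156200819-156201068 (minus strand): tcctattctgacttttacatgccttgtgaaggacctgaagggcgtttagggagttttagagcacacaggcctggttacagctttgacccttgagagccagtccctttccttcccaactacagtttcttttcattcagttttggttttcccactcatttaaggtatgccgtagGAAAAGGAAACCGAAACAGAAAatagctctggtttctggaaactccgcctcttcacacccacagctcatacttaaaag
Oas1g, chr5:120887614-120887863 (minus strand): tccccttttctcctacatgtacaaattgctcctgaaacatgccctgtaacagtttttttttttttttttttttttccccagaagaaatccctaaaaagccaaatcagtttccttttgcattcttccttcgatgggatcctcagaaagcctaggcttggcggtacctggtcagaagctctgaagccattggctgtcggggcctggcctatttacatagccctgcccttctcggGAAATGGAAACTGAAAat
TGANTCA, searched on both strands, was present in 9 of the 12 upstream windows of tested Sprr genes and in 0 of 17 windows of tested Lce genes. It stood in 5.08% of 12391 windows of tested genes and in 6.75% of all 32851 windows. The interferon motif was present in 13 of 29 windows of tested interferon response genes, against 2.70% of the windows of tested genes and 2.98% of all. Neither motif was particular to its group. TGANTCA stood also in 6 of these 29 windows and in 4 of 15 windows of tested keratinocyte cytokine genes. The interferon motif stood in 2 of those 15 windows and in 0 windows of tested Sprr or Lce genes. Overlapping matches were each counted, as in the 3 of Isg15. The Sprr2 genes are tandem copies on chromosome 3 that share sequence, so their windows are not independent. A match is a description of the letters and not a measured site, and no match says only that these letters are not in the window.

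Genes were then split by their signal in Krt1+/+ skin against Krt1+/+ epidermis, at 2-fold with an adjusted p under 0.05. Of the 1330 epidermis-rich genes 911 rose in Krt1-/- skin and 22 fell, with a median log2 change of 0.95. Of the 1397 skin-rich genes, 13 rose and 704 fell, with a median of -0.73. Of the 9372 genes shared between the tissues 823 rose and 1239 fell, with a median of -0.08. The Krt1+/+ skin arrays enter both the split and the genotype contrast, so a gene that reads low on them is pushed towards epidermis-rich and towards a rise, and these counts are a description with no test. A split by the tissue difference averaged over both genotypes shares the push of the Krt1+/+ skin arrays less. This split also weighs Krt1-/- skin equally and is free of an additive log2 offset of a column set. It left 361 epidermis-rich genes, of which 156 rose and 28 fell (median 0.46), and 1087 skin-rich genes, of which 33 rose and 439 fell (median -0.64). Of the 1330 epidermis-rich genes of the first split 264 kept the class and 1065 became shared. Of the 1397 skin-rich genes 991 kept the class and 406 became shared. In epidermis taken alone, the 1330 genes of the first split had a median change of -0.90. In the average over both tissues their median was 0.00. The Krt1+/+ epidermis arrays enter both that split and the epidermis contrast, so a gene high on them is pushed towards a fall there. For the 361 epidermis-rich genes of the second split the medians were 0.22 in epidermis and 0.32 in the average. In bulk tissue a lower share of dermal cells and less dermal RNA per cell cannot be told apart.

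**Figure D1:**
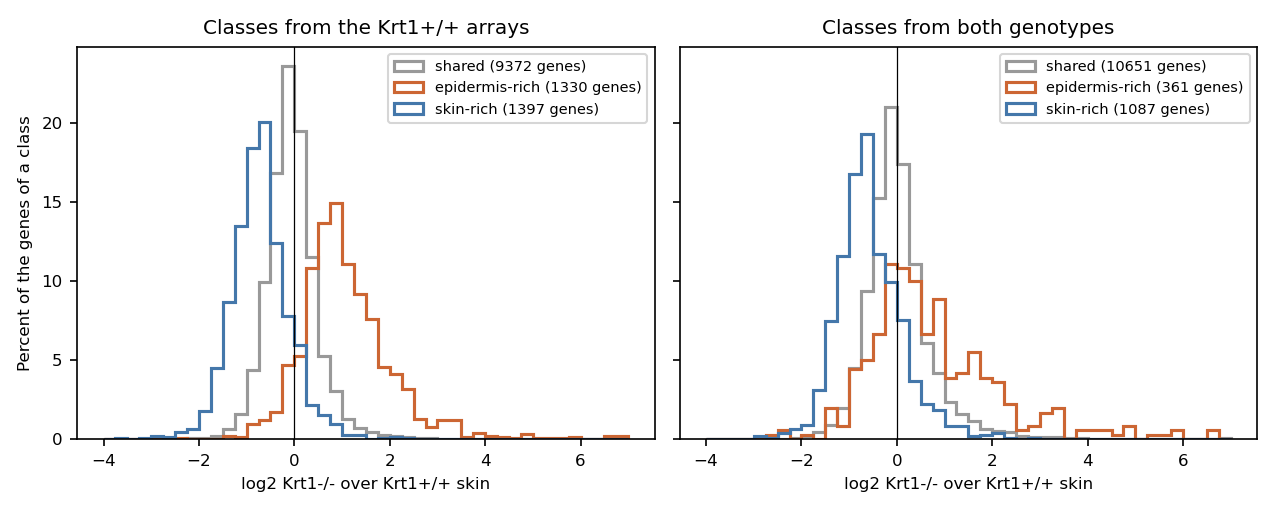
Distribution of the log2 change in Krt1-/- over Krt1+/+ skin (x axis) as the percent of the genes of each class (y axis), with classes from the Krt1+/+ arrays on the left and from both genotypes on the right; the end bins hold all values beyond them. Epidermis-rich genes lie to the right (medians 0.95 and 0.46) and skin-rich genes to the left (medians -0.73 and -0.64) in both.

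Cornified envelope precursors were among the largest rises. Small proline-rich proteins are cross-linked into the envelope of the outermost keratinocytes, and 12 of 13 tested rose and 0 fell, with a median log2 change of 4.91 against -0.071 over all genes (4.70 with undetected genes at their lower bound, and 2.91 without background correction). From the deposited normalized table the median was 2.93, and the list medians given below without background correction are, to 2 decimals, also those of that table. Sprr2e read 98, 108 and 89 in Krt1+/+ and 4362, 2213 and 2118 in Krt1-/- skin. It was detected on 1 of 3 Krt1+/+ arrays and on all Krt1-/- arrays, and the fitted fold of 109.5 rests on Krt1+/+ values near background (log2 6.77 ± 0.24 SE, adjusted p = 1.3e-09). Sprr2k read 99, 91 and 89 against 1728, 446 and 445, was undetected on all 3 Krt1+/+ arrays, and was at least 25.5-fold higher. For Sprr1b the values were 434, 488 and 357 against 16076, 12133 and 11881, a 34.7-fold rise that may be compressed at the high Krt1-/- signals. Replicate 1 of Krt1-/- skin was the highest for each of these genes. Sprr2i and Sprr2b, undetected in Krt1+/+ skin, were at least 26.0-fold and 12.4-fold higher. Near-identical Sprr2 copies may share a probe, so the single members are less certain than the family. In the average over both tissues all 13 rose.

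Lce genes sit in the same gene cluster and encode precursors of a later stage. Of 18 tested, 11 rose and 1 fell in Krt1-/- skin (median log2 1.11). The 5 Lce3 members tested, of a group known to be induced in damaged epidermis, were the 5 largest of these rises, and the fall, named after its value was seen, was Lce1m. Lce3f read 109, 118 and 99.8 against 8652, 3256 and 4644, 157-fold higher, the largest change of all genes tested (adjusted p = 4.1e-09). Lce3e read 118, 109 and 98 against 3048, 1349 and 1629, a 58.6-fold rise, and Lce3a rose 9.01-fold. The fitted folds of Lce3f and Lce3e rest on Krt1+/+ values near background. Lce1g rose in skin by 3.17 on the log2 scale and fell in the epidermis arrays by 2.50, with an average of 0.34 that did not pass (adjusted p = 0.24). Over the whole list 6 rose and 1 fell in the average.

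Of other envelope proteins, 9 of 15 rose and 0 fell. Repetin (Rptn), a scaffold protein of the S100 fused type, read 257, 196 and 189.6 in Krt1+/+ and 15583, 8582 and 12974 in Krt1-/- skin, 91.1-fold higher. Cornifelin (Cnfn) read 586, 558 and 297 against 2624, 1544 and 1544, 4.06-fold higher. Involucrin (Ivl), laid down early in the envelope, rose 4.69-fold and transglutaminase 1 (Tgm1), the enzyme that cross-links it, 3.12-fold. No Krt1+/+ array reached a Krt1-/- array for these genes. Loricrin (Lor), the main envelope protein, read 15963, 12726 and 18029.6 against 20916, 18145 and 20332, higher on every Krt1-/- array before normalization and overlapping after it (log2 0.13, adjusted p = 0.61). Keratin 10 (Krt10), the partner of keratin 1, read 14237, 13871 and 14581 against 20049, 14736 and 16377 with the same pattern (log2 0.025, adjusted p = 0.94, and of negative sign without replicate 1 of either genotype). Both probes read at high signal, where a change may not show. The brightest probe of a skin array read between 21229 and 26872. Of 11 stress keratin genes 4 rose and 1 fell, with a median of 0.22 (0.40 without Krt1+/+ replicate 2 and 0.41 without Krt1-/- replicate 3, 0.13 without background correction and 0.14 with the mean of the probes of a gene). Among them the wound keratin Krt6b rose 91.2-fold, Krt6a 17.3-fold and Krt16 15.1-fold, each in epidermis as well (6.02, 4.72 and 2.69 on the log2 scale).

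**Figure D2:**
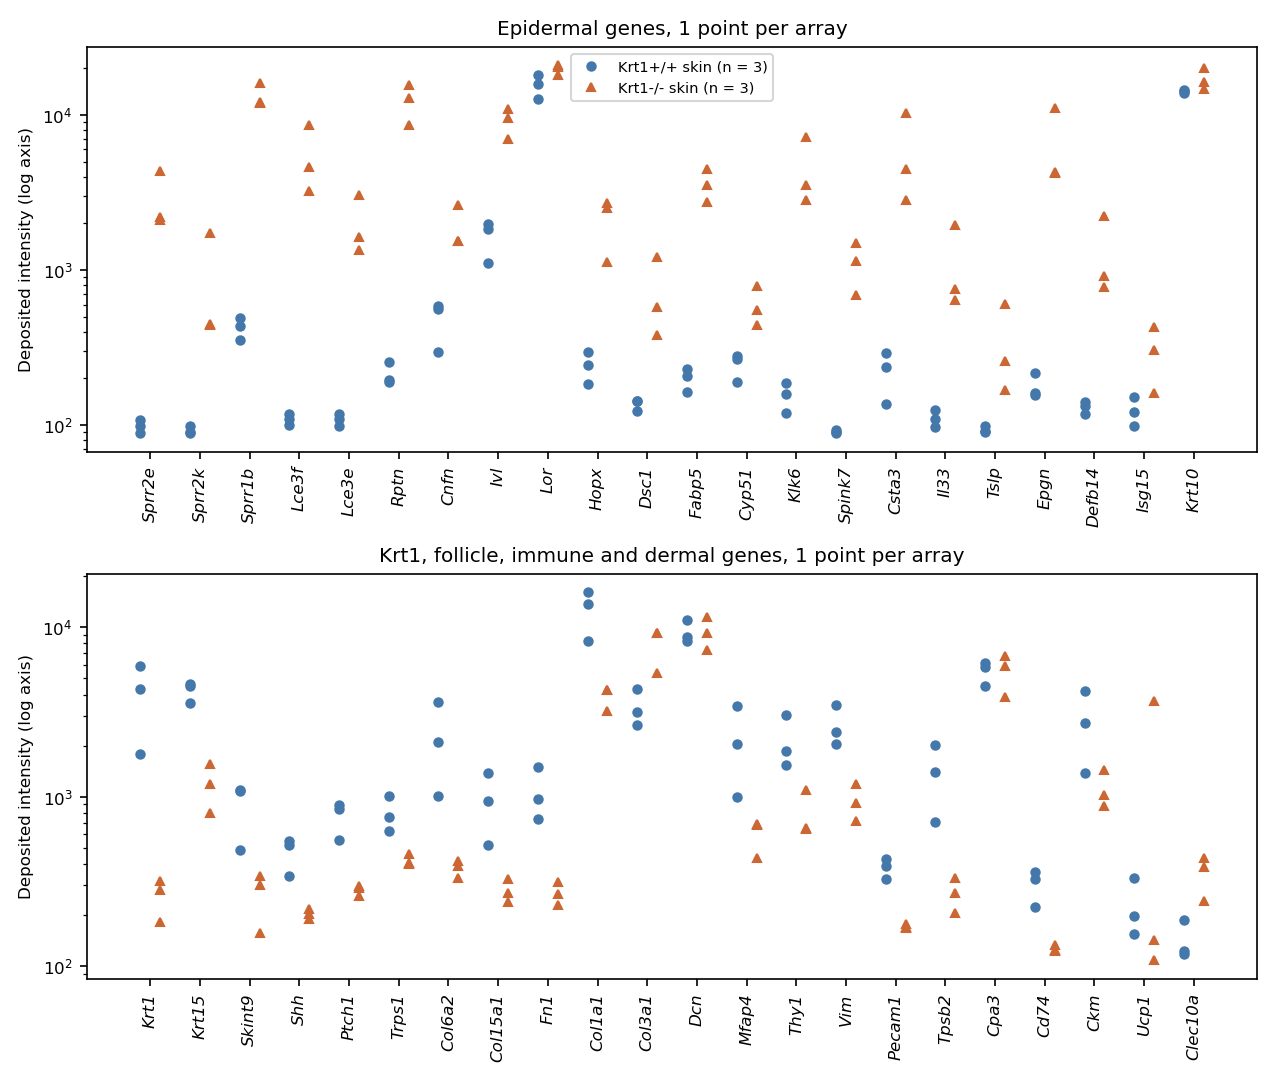
Deposited, unscaled intensity (y axis, log scale) of 44 genes on the 3 Krt1+/+ (circles) and 3 Krt1-/- (triangles) skin arrays, 1 point per array. Genes such as Sprr2e, Lce3f and Il33 stand near 100 units in Krt1+/+ and far higher in Krt1-/- skin. Krt15, Skint9 and Col6a2 are lower on every Krt1-/- array, and Lor and Krt10 read high in both genotypes.

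Transcription factors of keratinocyte differentiation rose in 10 of 22 tested and fell in 1. Hopx, a homeodomain protein of differentiating keratinocytes, read 295, 185 and 243 against 2515, 1128 and 2702, with every Krt1-/- array above every Krt1+/+ array (11.6-fold, adjusted p = 2.4e-05). Grainyhead-like factors of the barrier followed, Grhl3 2.28-fold and Grhl1 2.06-fold (other probe log2 0.06, a call lost with the mean of its probes, log2 0.55, adjusted p = 0.11), and the zinc-finger factor Zfp750 rose 2.26-fold. Klf4, needed for the barrier in mice, rose 2.02-fold by its brightest probe, while the 2 other probes of the gene gave log2 values of -0.16 and -0.08, and with the mean of its probes the call was lost (log2 0.25, adjusted p = 0.51). Trp63, the master factor of the basal layer, read 2040.0, 1741 and 1602 against 2372, 1910.2 and 1891 with overlapping groups (log2 -0.15, adjusted p = 0.59, and of opposite sign, 0.19, under median centring). Hopx, Grhl1 and Grhl3 also rose in the average over both tissues, and Zfp750 and Klf4 did not pass there.

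Junction genes rose in part. Of 10 desmosomal genes, which tie keratin filaments to the membrane, 4 rose and 0 fell. The suprabasal cadherin Dsc1 read 143, 143 and 123 against 1216, 384 and 581, 10.1-fold higher, plakoglobin (Jup) rose 4.45-fold and the cadherin Dsg1b 3.17-fold (other probes log2 0.27 and 0.25). Perp, a desmosomal membrane protein, rose 8.12-fold in skin but fell by 2.66 on the log2 scale in epidermis, with an average of 0.18 (adjusted p = 0.50). Tjp1, a tight junction scaffold, differed likewise, by 2.61 in skin and -2.76 in epidermis. Of 11 tight junction genes 4 rose (2 without Krt1+/+ replicate 1), and of 5 connexins, the subunits of gap junctions, 2 rose, Gjb6 5.86-fold and Gjb2 3.99-fold, both of them in the average too.

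Lipids fill the space between cornified cells. Of 27 genes of ceramide and barrier lipid metabolism 16 rose and 1 fell (median log2 0.73, or 0.46 without background correction), and in the average 17 rose and 0 fell. Abca12, the transporter that loads lipids into lamellar granules, read 212, 183 and 143 against 1609, 834 and 1096, 11.004-fold higher (log2 3.46, other probe 0.43). Degs2, a desaturase and hydroxylase of ceramides, rose 6.20-fold, the fatty acid hydroxylase Cyp4f39 3.91-fold, the cholesterol sulfotransferase Sult2b1 2.93-fold (other probes log2 1.12 and 0.50) and the fatty acid transporter Slc27a4 2.71-fold. Fabp5, the fatty acid-binding protein of keratinocytes, read 231, 206 and 164 against 4521, 2763 and 3555, 28.1-fold higher. The lipoxygenase Alox12b read 704, 737 and 285 against 881, 583 and 448 and did not pass (log2 0.088, adjusted p = 0.91, with a negative sign without Krt1+/+ replicate 3 or without Krt1-/- replicates 1 or 2). Of 14 genes of cholesterol synthesis 8 rose and 0 fell (median 1.04, or 0.57 with the mean of the probes of a gene). They include the sterol demethylase Cyp51 (281, 265 and 191 against 794, 443 and 549.8, 3.02-fold), the cyclase Lss (3.41-fold, log2 1.77, other probe 0.16) and the epoxidase Sqle (2.91-fold, log2 1.54, other probe 0.46). Idi1, an isomerase earlier in that pathway, rose 10.0-fold in skin, fell in epidermis by 2.93 on the log2 scale and averaged 0.20. Of 21 channels and transporters 11 rose and 0 fell, among them the aquaporin Aqp9 (4.73-fold) and the chloride channel regulator Clca2 (3.75-fold).

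Proteases shed cornified cells, and inhibitors restrain them. Of 20 kallikreins and other epidermal proteases 9 rose and 1 fell, and of 21 inhibitors 14 rose and 0 fell (medians 0.73 and 1.58). The kallikrein Klk6 read 159, 188 and 121 against 7186, 2846 and 3523, 55.1-fold higher, and the serine protease Prss27 rose 9.44-fold (other probes log2 3.28 and 0.43). Klk5 and Klk7, which act in desquamation, rose 2.57-fold and 6.66-fold. Spink7, a Kazal-type inhibitor, read 93, 91 and 89.6 against 1489, 691 and 1145, without detection on any Krt1+/+ array, so that it was at least 40.4-fold higher. Spink5, the inhibitor of the skin kallikreins, read 216, 176 and 157 against 3629, 971 and 1895, 17.5-fold higher in skin, but fell in epidermis by 1.83 on the log2 scale. The cysteine protease inhibitor Csta3 rose 38.7-fold (237, 294 and 136 against 10342, 4494 and 2836), and the serpins Serpinb11 and Serpinb6c 25.5-fold and 14.7-fold. Each of these 3 rose in epidermis as well. Stfa3 and Cstdc6, of the stefin cluster, rose 30.7-fold and 30.6-fold in skin and fell in epidermis, by 2.52 and 1.27 on the log2 scale. In the average over both tissues 14 inhibitors rose and 2 fell.

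Of 26 listed alarmins and cytokines of keratinocytes 15 were tested. Of these 9 rose and 0 fell (median log2 1.76), and 10 rose in the average. The median was 1.17 without Krt1-/- replicate 1, 0.79 without background correction and 0.57 without the detection filter. Il33, an alarmin released by damaged cells, read 125, 97 and 109 against 1968, 758 and 643, 27.7-fold higher, with an effect of 4.79 in skin and 4.79 in epidermis. Tslp, which acts on dendritic cells and allergic inflammation, read 99, 91 and 92 against 607, 168 and 259.6, at least 8.57-fold higher. Of the interleukin 36 genes, Il1f6 rose 15.4-fold (and fell in epidermis, at -0.84 on the log2 scale) and Il1f8 9.04-fold, and the interleukin 1 genes Il1a and Il1b rose 4.97-fold and 2.98-fold beside their antagonist Il1rn, 3.55-fold. Il18, an inflammasome product, read 279, 326 and 207 against 1169, 753 and 1081 and rose 4.63-fold in skin, and its change in epidermis was -0.77 (adjusted p = 0.072). Epgn, which activates the epidermal growth factor receptor, read 217, 160.4 and 157 against 11054, 4315 and 4232, 59.9-fold higher, and the ligand Hbegf rose 3.60-fold. Lrig1, a membrane inhibitor of that receptor, fell by 1.21 on the log2 scale. Of 19 antimicrobial and alarmin genes 13 rose and 0 fell. The rises were 9 without Krt1+/+ replicate 1, and 10 without Krt1+/+ replicate 3 or Krt1-/- replicate 1 or 2. The beta-defensin Defb14 read 133, 140.1 and 118 against 2233, 778 and 918, 21.1-fold higher, and Defb4, undetected in Krt1+/+ skin, was at least 11.4-fold higher.

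Signs of inflammatory cells were mixed. Neutrophil genes rose in 7 of 13 and fell in 0, but the count was 4 without Krt1-/- replicate 1 or without replicate 2. They include S100a8 (444, 338 and 182 against 5046, 2668 and 1289) and S100a9, 16.9-fold higher, which stressed keratinocytes make too. Retnlg and Ltf, granule or secreted products of neutrophils, rose 3.42-fold and 2.45-fold from near background, with detection on 2 and 1 of the 3 Krt1+/+ arrays. Of 19 chemokines 4 rose and 3 fell, with 2 rises without Krt1+/+ replicate 1 or 3 or Krt1-/- replicate 1. The neutrophil attractant Cxcl1 read 112, 106 and 101 against 1043, 262 and 148, high on Krt1-/- replicate 1 and low on replicate 3, with a fold of 7.87 (adjusted p = 0.0068, and 0.05 without background correction, log2 1.65). Cxcl14, made by resting epithelia, fell by 1.47 on the log2 scale (other probe -0.40). Of 17 eicosanoid genes 6 rose and 1 fell, with a median of 0.14. Ptges, an enzyme of prostaglandin E2 synthesis, rose 5.40-fold (log2 2.43, other probe 1.11).

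Of 32 interferon response genes 12 rose in skin and 0 fell, with a median of 0.69 (0.29 without background correction). The rises were 8 without Krt1+/+ replicate 2 or 3 or Krt1-/- replicate 1, and 15 without Krt1-/- replicate 2. In the average over both tissues 27 of the 32 genes rose, where 10.9% of all genes did. Isg15, whose upstream window holds 3 matches, read 151, 121 and 99 against 428, 162 and 306, 4.70-fold higher. Its lowest Krt1-/- array, replicate 2, lay just above the highest Krt1+/+ array. The antiviral genes Oas1g and Oasl2 rose 3.67-fold and 5.01-fold, and Irf9, a subunit of the factor that binds these elements, 2.42-fold. On the log2 scale these are 1.87, 2.32 and 1.27, and the other probe of each gave 0.62, 0.47 and 0.32. Oasl2 read 502, 284 and 189 against 1634, 729 and 1581. Ifi202b, a DNA sensor of the interferon-inducible 200 family, rose 22.4-fold. Of 13 antigen presentation genes 1 rose and 5 fell, with 2 falls without Krt1+/+ replicate 2 and 3 without Krt1+/+ replicate 3 or Krt1-/- replicate 1 or 2. The class I heavy chain H2-K1 read 229, 148 and 147 against 992, 534 and 1320.0, 9.10-fold higher at its brightest probe (log2 3.19), while its other probes gave 0.12 and 0.26. The class I chain H2-D1 and the class II chain H2-Aa did not pass (log2 0.043 and -0.059, adjusted p of 0.93 for both). The class II invariant chain Cd74 read 326, 359 and 223 against 134, 124 and 123 and fell by 2.30 on the log2 scale, and the class II chain H2-Ab1 fell by 1.90.

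Stress responses rose in part of their members. Of 28 oxidative stress genes 12 rose and 3 fell, among them the cystine transporter Slc7a11 (11.1-fold, log2 3.47, other probes 1.09, 1.90 and 0.78) and the glutathione transferase Gsta4 (6.37-fold), which also rose in the average. Of 27 heat shock and folding genes 12 rose and 3 fell in skin, but 6 rose in the average. Hspa1b, an inducible heat shock protein, rose 12.5-fold in skin and fell in epidermis by 2.56 on the log2 scale. Of 25 immediate early genes 10 rose, including Ier3 (2.97-fold) and the phosphatase Dusp5 (4.29-fold). The count was 5 without Krt1-/- replicate 1 or 2 and 6 without Krt1+/+ replicate 2. Outside these lists, 4 of 14 retinoid and steroid genes rose and 0 fell, with a median of -0.085. Crabp2, a carrier of retinoic acid, rose 5.61-fold. Adm, the peptide adrenomedullin, is of the hypoxia list and rose 2.82-fold.

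Some genes of the basal layer, the follicle and the resident immune cells of the epidermis fell. Their counts below stand beside the 16.2% of all genes that fell, and the excess was not tested. The basal keratin Krt15 read 4603, 4480.5 and 3579 against 799, 1192 and 1555 and fell by 2.34 on the log2 scale, and fell in epidermis too (-0.97). Krt14 read 14564, 11544 and 12083 against 14747, 12819.5 and 14905 with overlapping groups at high signal (log2 -0.094, adjusted p = 0.73, and 0.15 under median centring). Of 13 basal genes 4 fell and 1 rose. Skint9, of the family of membrane proteins that select epidermal T cells in mice, read 1092, 1079 and 487 against 157, 301 and 342 and fell by 2.42 in skin and 2.42 in epidermis. The T-cell receptor subunit Cd3e, detected on all Krt1+/+ and no Krt1-/- skin array, was at least 1.63-fold lower (log2 -0.30, adjusted p = 0.05 without background correction, and other probe -0.41). Of 15 genes of epidermal T and Langerhans cells 4 fell and 0 rose, and 7 fell in the average. Hair follicle genes fell in 8 of 33 and rose in 0. The falls were 6 without Krt1+/+ replicate 1 or 2 or Krt1-/- replicate 1 or 3, and 12 without Krt1-/- replicate 2. The median of the list was -0.69. That median was -0.38 without Krt1-/- replicate 1, -1.07 without replicate 2 and -0.34 without background correction. Sonic hedgehog (Shh), the signal of the follicle bud, read 518, 546 and 339 against 189, 217 and 203 and fell by 1.79 on the log2 scale. Its receptor and target Ptch1 read 847, 896 and 553 against 259, 291 and 296 and fell by 1.95 (other probe -0.45). The follicle factor Trps1 fell by 1.25 (other probes -0.92 and -0.26), the progenitor factor Sox4 by 2.13 (other probe -0.17) and the Wnt target Sp5 by 1.27. Sox4 and Sp5 are not of the follicle list. The groups lay apart for each of these 5 genes, and each fell in the average too. Of 34 proliferation genes 8 fell and 3 rose. Birc5, a protein of chromosome segregation, fell by 1.02, while Pcna, the clamp of DNA polymerase, rose by 2.23 in skin, fell by 2.89 in epidermis and averaged -0.33 (adjusted p = 0.28).

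**Figure D3:**
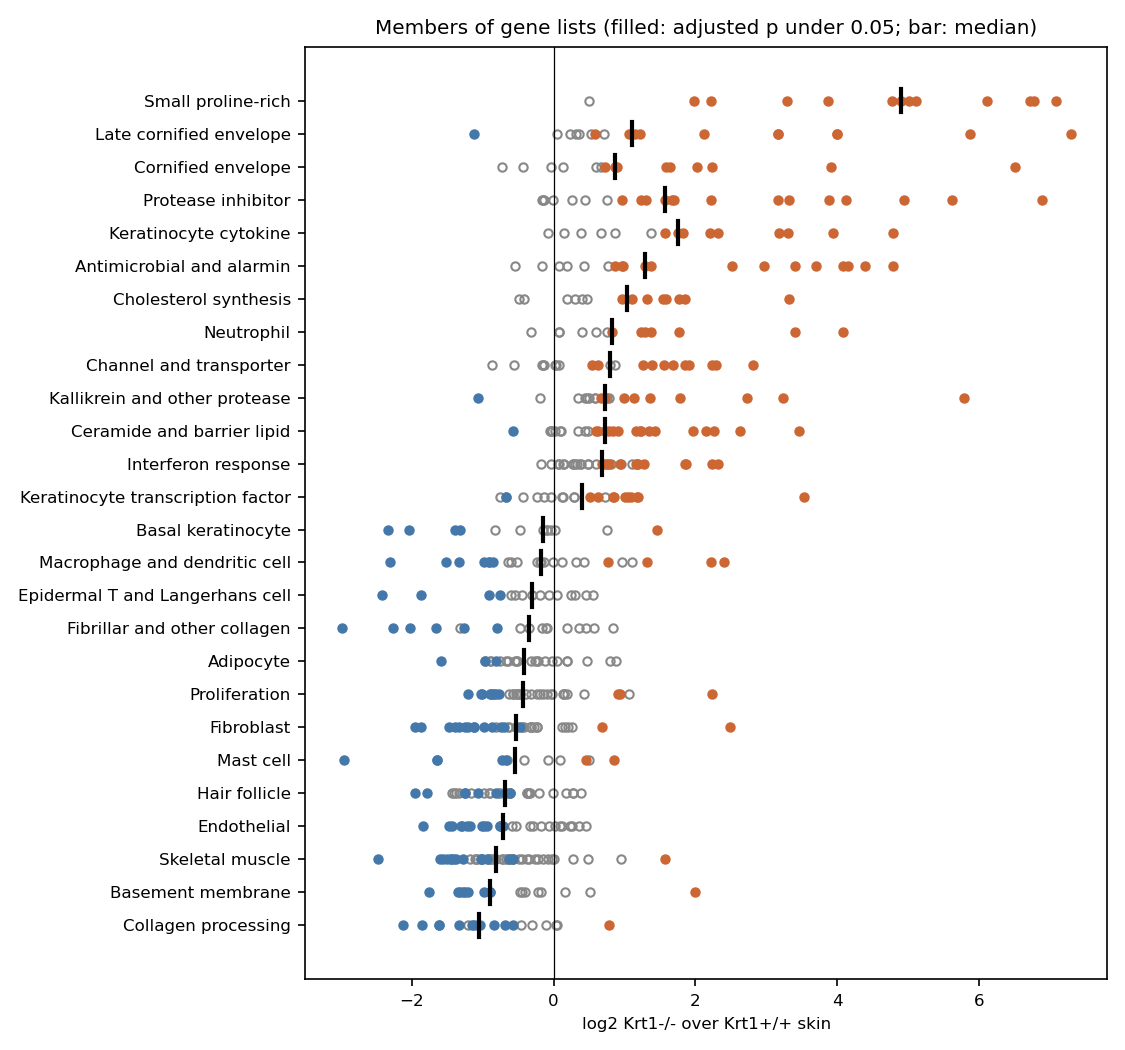
Log2 change in Krt1-/- over Krt1+/+ skin (x axis) of each tested member of 26 gene lists (rows); filled points passed an adjusted p of 0.05, open points did not, and the bar is the median. Small proline-rich genes have the highest median, 4.91, and collagen processing genes the lowest, -1.05.

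In the dermis the falls covered matrix, vessels and stroma. Of 17 collagen genes 6 fell and 0 rose, with a median of -0.34 (-0.10 without background correction and -0.22 under median centring), but the genes did not move alike. Col6a2, a chain of the microfibrillar collagen VI, read 3607, 2096 and 1012 against 388, 333 and 415 and fell by 2.99 on the log2 scale (adjusted p = 1.4e-05, other probe -0.78). In epidermis it rose by 1.02, and it averaged -0.98 (adjusted p = 0.0046). Col15a1, a collagen of the vessel and muscle basement membrane zone, fell by 2.26 and Col14a1, a fibril-associated collagen, by 1.26. Col1a1, a chain of the main dermal collagen, read 15978, 13608 and 8213 against 4268, 3192 and 4276 and fell by 2.02. That call was lost without Krt1+/+ replicate 1 (-1.93, adjusted p = 0.056) or replicate 2 (-1.90, adjusted p = 0.054). It was lost also under median centring and against a threshold of 1.5-fold. In epidermis Col1a1 rose by 2.23, with an average of 0.11. Its partner chain Col1a2 read 1834, 648 and 1095 against 1912, 1349.9 and 2654 and did not pass, at 0.58 (adjusted p = 0.24). Col3a1, which joins collagen I in young skin, read 4305, 2632 and 3143 against 9234, 5325 and 9178, apart and higher in Krt1-/- skin, but did not pass (0.84, adjusted p = 0.20, and 0.012 with the 6 skin arrays alone in the fit), and its other probe gave -0.56. Col1a1 thus fell at its probe while Col1a2 and Col3a1 read higher at theirs without passing.

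Enzymes and chaperones that fold and trim collagen fell in 12 of 20 and rose in 1, with a median of -1.05 (-0.67 without background correction). The C-proteinase enhancer Pcolce read 1534, 962 and 670.5 against 382, 284 and 329.5 and fell by 2.13 on the log2 scale. The prolyl hydroxylase P3h1 fell by 1.62 (other probes -1.12 and -0.32) and the collagen chaperone Serpinh1 by 1.04, a call lost under median centring (-0.65, adjusted p = 0.079). Of other matrix proteins, fibronectin (Fn1) read 1498, 975 and 736 against 313, 268 and 231 and fell by 2.58 at its brightest probe (other probes -0.21 and -0.73), and the microfibril-associated Mfap4 fell by 2.15. Decorin (Dcn), a proteoglycan that binds collagen fibrils, read 10948, 8277 and 8775 against 11444, 7276 and 9159.8 with overlapping intensities (log2 -0.38, adjusted p = 0.14, but called with the mean of its probes, log2 -0.56). Basement membrane genes fell in 9 of 17, including the collagen IV chain Col4a2 (by 1.76), perlecan (Hspg2, by 1.28), the laminin chain Lama5 (by 1.21) and the anchoring collagen Col7a1 (by 1.25). Lamb1 rose by 1.99 in skin, fell by 2.36 in epidermis and averaged -0.18.

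Markers of dermal cells fell more often than they rose. Fibroblast genes fell in 14 of 33 and rose in 2. Vimentin (Vim) read 3458, 2396 and 2053 against 1180.4, 721 and 921 and fell by 1.95 on the log2 scale, the surface protein Thy1 by 1.88 (with a rise of 1.54 in epidermis and an average of -0.17) and the growth factor receptor Pdgfrb by 1.12, while Pdgfra read 2061, 1142 and 1512 against 1496, 1308 and 1535 with overlapping groups (log2 -0.41, adjusted p = 0.47). Endothelial genes fell in 14 of 27 and rose in 0, with a median of -0.72 (-0.44 without background correction and -0.33 without the detection filter). Pecam1, an adhesion protein of vessel walls, read 432, 388 and 326 against 169, 170.1 and 177, 3.60-fold lower (log2 -1.85, adjusted p = 1.3e-05, other probe -0.50). The endothelial cadherin Cdh5 fell by 0.93, the receptor Aplnr by 1.47 and the coreceptor Eng by 1.31. Pericyte and smooth muscle genes fell in 7 of 14 and rose in 0. The summed intensity of the endothelial list nevertheless overlapped, at 14309, 9258 and 10494 in Krt1+/+ and 9353, 8041 and 10476 in Krt1-/- skin, and so did that of the fibroblast list, 55542, 38169 and 42946 against 41164, 36541 and 43143. Mast cell genes fell in 5 of 12 and rose in 2, a count of 3 falls without Krt1+/+ replicate 1 or without Krt1-/- replicate 1 or 3. The tryptase Tpsb2 read 2008, 1390.3 and 704 against 331, 270.1 and 207 and fell by 2.95, while carboxypeptidase Cpa3 read 6109, 5819.9 and 4491 against 6704, 3892 and 5866, with overlapping intensities, and did not pass (log2 -0.42, adjusted p = 0.72). Of 24 macrophage and dendritic cell genes 4 rose and 6 fell, with 2 falls without Krt1+/+ replicate 1 and 3 without Krt1-/- replicate 2, and 2 rises without Krt1+/+ replicate 2 or Krt1-/- replicate 1. The lectin Clec10a read 187, 123 and 119 against 386, 242 and 435 and rose 4.65-fold, and the folate receptor Folr2 fell by 1.52.

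Few genes that were skin-rich in the split by the Krt1+/+ arrays rose. Lrg1, a secreted glycoprotein induced by inflammation, read 251, 162 and 176 against 467, 446 and 452, 3.44-fold higher, and Sparcl1, a matricellular protein, rose 4.35-fold. Together with Oasl2 and Clec10a they are the largest 4 of the 13 skin-rich rises, 0.931% of that class. The Krt1+/+ skin arrays enter both that split and the contrast, so few rises are partly built in. In the split over both genotypes 33 of 1087 skin-rich genes rose (3.04%). Of epidermis-rich genes 22 fell, and after Skint9 the next largest falls were Minar2 (by 1.46 on the log2 scale), Cpsf4l (by 1.38, other probe 0.00) and Sp5.

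Muscle and fat varied between arrays of a genotype. Skeletal muscle genes fell in 14 of 47 and rose in 1 (3 without Krt1-/- replicate 1), with a median of -0.81 (-0.54 without Krt1+/+ replicate 3). The glycogen phosphorylase Pygm read 776, 267 and 473 against 150.2, 203 and 128 and fell by 2.48 on the log2 scale, and creatine kinase Ckm read 4216, 1380.0 and 2712 against 1028, 1436 and 886 and fell by 1.60. Before normalization the Ckm value of Krt1-/- replicate 2 lay above that of Krt1+/+ replicate 2, and after it the groups lay apart. Skeletal actin (Acta1) read 19573, 9425 and 18381 against 13162, 15711 and 13414 with overlapping groups (log2 -0.34, adjusted p = 0.62). The summed intensity of the list was 187112, 94141 and 159515 in Krt1+/+ and 110013, 135124 and 100969 in Krt1-/- skin. The count of falls moved with single arrays, to 6 without Krt1+/+ replicate 1 or Krt1-/- replicate 3, 8 without Krt1+/+ replicate 3 or Krt1-/- replicate 1, 25 without Krt1+/+ replicate 2 and 23 without Krt1-/- replicate 2. Adipocyte genes fell in 3 of 24, in 8 without Krt1-/- replicate 3, in 1 without Krt1-/- replicate 1 and in 0 without Krt1+/+ replicate 1. Krt1-/- replicate 3 stood apart for fat and mitochondria. Ucp1, the uncoupling protein of brown fat, read 329.9, 154 and 199 in Krt1+/+ and 142, 108 and 3684 in Krt1-/- skin. Cidea, a lipid droplet protein high in brown fat, read 293, 211 and 318 against 203, 166 and 3929.7. Both were chosen after their values were seen. On the same array the summed intensity of fatty acid oxidation genes was 45259, where the other 5 skin arrays lay between 11091 and 16782, and that of respiratory chain genes 153273 against 62714 to 95369. Without it, falls among respiratory chain genes went from 1 to 10 of 32 and among fatty acid oxidation genes from 2 to 8 of 18. The part of muscle and fat content in the other dermal values was not tested.

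**Figure D4:**
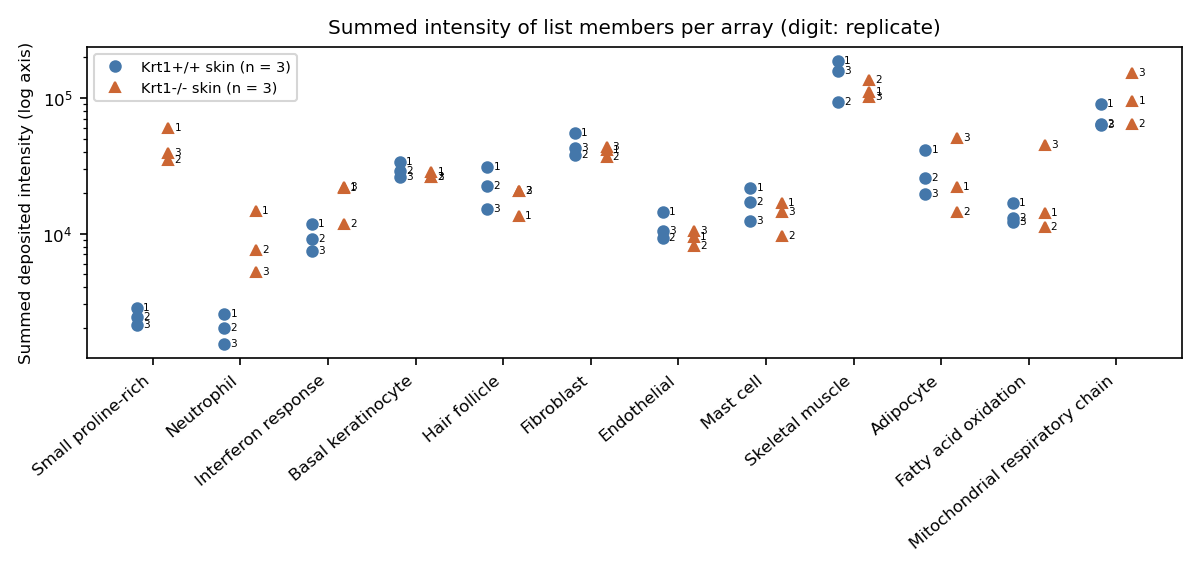
Summed deposited intensity (y axis, log scale) of the tested members of 12 gene lists on each Krt1+/+ (circles) and Krt1-/- (triangles) skin array, with the replicate number beside each point. Krt1-/- replicate 3 lies highest for fatty acid oxidation, at 45259, and small proline-rich genes are higher on every Krt1-/- array.

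The genotype effects of skin and epidermis were set side by side for the genes named. Klk6, Il33, Epgn and Spink7 had effects in both tissues that lay close, between 4.79 and 5.90 on the log2 scale in skin and between 4.79 and 6.04 in epidermis, and Skint9 fell by 2.42 in both. Other genes had effects of opposite sign. Ptms, which encodes parathymosin, read 1202, 643 and 214 against 132, 112 and 129 in skin, fell by 3.54 there and rose by 2.74 in epidermis. Selenow, a selenoprotein, fell by 3.21 and rose by 3.21, and its average was 0.00. Rpl22l1 rose by 3.26 in skin and fell by 3.45 in epidermis. The difference of the effects passed an adjusted p of 0.05 for 3739 genes (30.9%). By its construction this difference is also the contrast of the first 6 columns with the last 6, so tissue and column set cannot be told apart in it.

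**Figure D5:**
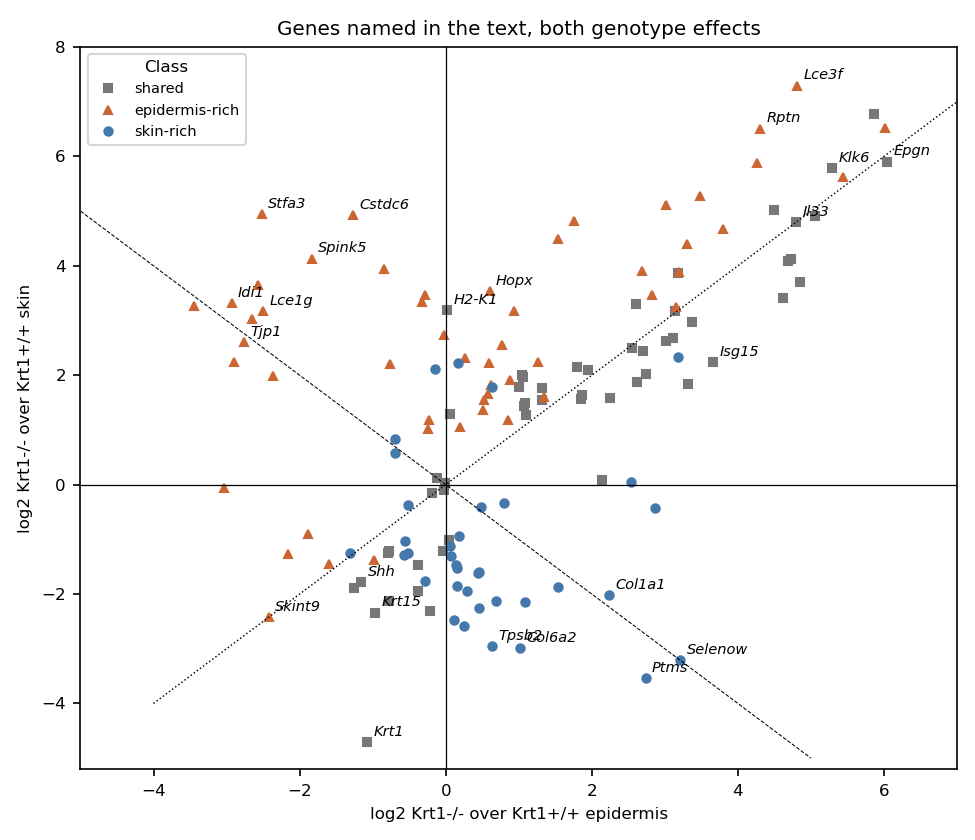
Log2 change by genotype in skin (y axis) against epidermis (x axis) for the genes named in the text, marked by class; the dotted line marks equal and the dashed line opposite effects. Epgn, Klk6 and Il33 lie near the dotted line and Ptms, Selenow, Idi1 and Tjp1 near the dashed line.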

How the data were processed

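Total RNA was labelled with an Ambion MessageAmp kit and hybridised to 1-colour Illumina bead arrays, per the labels' protocols. The deposited values used here are non-normalized intensities, 1 per probe and array, with a detection p-value each, per the file headers. A second deposited table holds quantile-normalized intensities. Of scanner software and settings no source used here speaks. Groups came from the sample titles.

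Intensities were background-corrected, quantile-normalized and log2-transformed with neqc (offset 16) in limma 3.58.1 under R 4.3.3. Of 45281 probes, 21712 with a detection p under 0.05 on at least 3 of the 12 arrays were kept, and the brightest probe stood for a gene. Probes were named through the platform annotation, updated by gene ID. The 4 groups were fitted together with lmFit and eBayes, and p-values were adjusted by Benjamini-Hochberg over the 12099 genes. For genes without detection on any array of a group, the lowest detected signal of each array gave a bound, written "at least N-fold". The fit was tested on simulated data. Alternatives changed the background correction, normalization, filter, probe, arrays, variance model, threshold and class rule, added the replicate block, or left out 1 array at a time.

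Gene lists and members were chosen with earlier results of these data known. Apart from genes marked as chosen or named after their values were seen, the genes named were picked from a set of candidates. The candidates were the 25 largest rises and falls in skin, the 12 largest in each class, and Krt1. They also held key genes of the lists, the 5 list members with the smallest p, and the 8 largest differences between the tissues in each direction. Not every candidate is named. Those left out include Bcat2, with a skin log2 change of -2.99, Anpep with -2.73 and Anxa6 with -2.41. The largest rises and falls, in skin and in each class, were taken from genes whose groups do not overlap after normalization. The other ways of naming did not ask for this. Promoter sequences are RefSeq's, in GRCm38.p6. Replicate numbers did not pair the arrays: deviations of same-numbered skin arrays correlated at -0.052, -0.031 and 0.065.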

Additional observations from a re-analysis of the deposited data

Results flagged for a closer look

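For 72 of the genes named, the genotype effect in skin and that in epidermis differed at an adjusted p under 0.05 by limma's test of the difference, 41 with the higher and 31 with the lower effect in skin. Over all genes 30.9% passed this test. The test contrasts the first 6 columns of the deposited table with the last 6, so a difference between tissues and one between these sets cannot be told apart, and for the arrays labelled Krt1-/- epidermis it rests on the labels. Each value below is the skin effect minus the epidermis effect on the log2 scale.

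Genes that rose in skin and fell in epidermis had the differences Stfa3 7.46, Rpl22l1 6.70, Idi1 6.25, Hspa1b 6.21, Cstdc6 6.20, Spink5 5.96, Perp 5.68, Lce1g 5.66 and Tjp1 5.37. Others of this kind were Pcna 5.13, Il1f6 4.78 and Lamb1 4.36.

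Genes that fell in skin and rose in epidermis had Thy1 -3.41, Col6a2 -4.001, Col1a1 -4.25, Ptms -6.28 and Selenow -6.42.

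Other genes with a higher effect in skin were, with their differences, Abca12 3.74, Dsc1 3.65, H2-K1 3.16, Fabp5 3.06, H2-Aa 2.98, Il18 2.98, Ifi202b 2.94, Hopx 2.93 and Klk7 2.76. Further differences of this sign were Lce3f 2.48, Sparcl1 2.27, Il1f8 2.24, Rptn 2.20, Sprr1b 2.10, Clec10a 2.05, Il1a 2.04, Gjb6 1.79 and Ivl 1.64. Further differences of this sign were Lce3e 1.61, Zfp750 1.41, Klf4 1.25, Ltf 1.24, Krt16 1.22, Il1rn 1.20, Lrg1 1.15, Sqle 1.02 and Cd3e 0.97. Further differences of this sign were Gjb2 0.95 and Sp5 0.89.

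Other genes with a lower effect in skin were Birc5 -1.07, Cdh5 -1.12, Lama5 -1.17, Pdgfrb -1.18, Sox4 -1.36, Krt15 -1.37, Eng -1.37, Col4a2 -1.48 and Ptch1 -1.56. Further lower values were Aplnr -1.61, Folr2 -1.67, Pecam1 -2.003, Alox12b -2.05, Ckm -2.05, P3h1 -2.06, Cd74 -2.08, Vim -2.25 and H2-D1 -2.49. Further lower values were Pygm -2.60, Col15a1 -2.72, Pcolce -2.82, Fn1 -2.84, Mfap4 -3.24, Cpa3 -3.28, Tpsb2 -3.59 and Krt1 -3.63.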

How the results depend on the processing

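Under median centring 1182 genes fell in skin and 1848 passed in the average over both tissues, against 1965 and 2925. Against a threshold of 1.5-fold (limma's treat) 555 rose, 218 fell, 1471 differed between the tissues and 250 passed in the average. With single skin arrays left out, 1326 to 1666 genes rose, 1307 to 1828 fell, 3162 to 3620 differed between the tissues and 2272 to 3039 passed in the average. The median of the epidermis-rich genes was 0.46 when split over both genotypes and 2.02 when split at 4-fold. Of the 130 named genes that passed, 130 kept their direction under every alternative run, 129 passed with each array left out, the exception being Col1a1, and 105 passed under every alternative. Many of the 130 were picked for a small p or a large change in the main fit. Their stability is thus partly built in and does not speak for other genes. Genes that had not passed changed sign: Krt14 (0.15) and Trp63 (0.19) under median centring, Krt10 without Krt1+/+ replicate 1 (-0.084) or Krt1-/- replicate 1 (-0.025; range with 1 array left out -0.084 to 0.094), and Alox12b without Krt1+/+ replicate 3 (-0.30) or Krt1-/- replicate 1 (-0.11) or 2 (-0.037). With 1 array left out H2-Aa ranged from -0.36 to 0.16 and H2-D1 from -0.33 to 0.24. The cause was not tested. With the replicate number as a block, although the numbers did not pair the arrays, 1718 genes rose, 1858 fell, 3652 differed between the tissues and 2749 passed in the average. The number of arrays, 3 a group, limits the precision, and probes near background or near the brightest signals can show less of a change. A fitted fold with either group near background is uncertain.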

Other observations

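Some gene groups stand outside the comparisons above and are given as counts at an adjusted p under 0.05 by limma in skin. Signalling genes of the TGF-beta and BMP pathways fell in 8 of 18 and rose in 1, with a median log2 change of -0.66, and 5 fell without Krt1+/+ replicate 2 or 3. Notch and Wnt genes fell in 7 of 29 and rose in 2, with 11 falls without Krt1-/- replicate 2. Matrix metalloproteases and their inhibitors fell in 10 of 22 and rose in 2. Hypoxia and glycolysis genes rose in 10 of 24 and fell in 3, but 4 rose without Krt1+/+ replicate 1 or Krt1-/- replicate 2, and 6 without Krt1+/+ replicate 3 or Krt1-/- replicate 1. Of 7 erythroid genes 0 passed in either direction, and 0 had an unadjusted p under 0.05. Cytosolic ribosomal protein genes, of which 4 of 38 rose and 4 fell, had a median of -0.023, close to that of all genes, -0.071, while under median centring their median was 0.26.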
